A study of Mus musculus with 18 samples.

Results

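The small nucleolar RNA host genes Gas5, Snhg1, Snhg3, Snhg5, Snhg6, Snhg8 and Snhg12 were followed across 18 RNA-seq libraries from mouse male germ cells. They are 7 named genes, all spliced and noncoding, among 15329 genes with an assembled spliced transcript. The mm9 annotation (GENCODE vM1) names 5 of the 7, so these were matched by strand and shared splice junction. It has no gene of the name Snhg6 or Snhg8. These 2 were taken as the unannotated spliced transcripts around the snoRNA gene that lies where RefSeq puts each host, between 6030422M02Rik (RefSeq Mcmdc2) and Gm10567 (RefSeq Tcf24) for Snhg6 and between Prss12 and Ndst3 for Snhg8. The 300 bases around the RefSeq start of Snhg8 matched mm9 exactly at 1 place on chromosome 3, within the assembled span.

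All libraries came from testes of adult wild-type C57BL/6 mice, from which pachytene spermatocytes, round spermatids and elongating spermatids were separated by sedimentation through albumin, with testes of several animals pooled. The cytoplasm of each cell type was then separated on sucrose gradients into light fractions, called RNP (ribonucleoprotein particles without ribosomes), and heavy fractions with polysomes (mRNAs carrying several ribosomes). Buffers for both steps contained cycloheximide, which stops elongating ribosomes. Fractions with single ribosomes were not analysed here. The 6 groups held 3 libraries each.

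Small nucleolar RNAs guide the chemical modification or cleavage of ribosomal RNA, and most in mammals are released from introns of a spliced host transcript. Box C/D snoRNAs direct 2′-O-methylation and box H/ACA snoRNAs direct pseudouridylation. The host genes studied here make no known conserved protein, and the spliced exons left after the introns are removed are exported to the cytoplasm, where many of them meet ribosomes and are degraded by nonsense-mediated decay. Several are transcribed from starts with a terminal oligopyrimidine tract, a run of C and T letters at the first transcribed base that ribosomal protein genes share.

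The start sites are shown because that tract is the sequence feature for which this gene class is known. RefSeq gives 7 starts for 6 of the 7 genes. Each line holds 15 bases before the start and 15 from it on, 5′ to 3′, and capitals mark a run of at least 5 C or T letters that includes the first transcribed base.
Gas5, upstream start (GRCm38.p6 chr1:161034586-161034615, plus strand): agggggcgggcccgcgagctcgacagcccg
Gas5, downstream start (chr1:161035151-161035180, plus strand): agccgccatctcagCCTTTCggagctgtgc
Snhg1 (chr19:8723472-8723501, plus strand): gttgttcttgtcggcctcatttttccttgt
Snhg3 (chr4:132353672-132353701, minus strand): tagtcgaccacgcctgacttccgggcgtta
Snhg5 (chr9:88522883-88522912, minus strand): gagctgcggtgaaccgggctcgttctttta
Snhg8 (chr3:123508322-123508351, minus strand): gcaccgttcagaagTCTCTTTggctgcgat
Snhg12 (chr4:132308663-132308692, plus strand): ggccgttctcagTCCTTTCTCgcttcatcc
The run was 6 letters long at the downstream start of Gas5, 7 at Snhg8 and 9 at Snhg12. Each of these runs began before the annotated start, so its length includes bases upstream of the first transcribed one. Such a run was found at 3 of these 7 starts and at 10.1% of the 32851 RefSeq starts searched. These are matches of letters at annotated starts, and transcription starts were not measured.

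The files held transcript assemblies with FPKM, the fragments of a transcript divided by its length and by the fragments mapped in the library. Between 15949 and 27740 spliced transcripts were assembled per library. The ratio of base coverage to FPKM, fixed in each file and taken as a guide to depth, differed by 1.88 times between its lowest and highest library. Read layouts differed between the sequencing centres, so this ratio may not measure depth alone. A gene is listed at 0 where no spliced transcript of it was assembled, which does not show that its RNA was absent. Both round spermatid libraries numbered 2 stood apart. Their summed FPKM over 11 of 12 Sertoli cell markers was 1431 and 2921, against 62.0 to 272 in the other 4 round libraries, and their summed FPKM over 7 of 8 elongating spermatid markers was 78.2 and 119, against 1245 to 4384. Round spermatid markers (4 of 6) summed to 14.6 and 49.4 there, against 255 to 722, and spermatogonia markers to 317 and 547, against 41.2 to 198. Sertoli cell markers also summed to 180 to 1981 in pachytene libraries and to 35.8 to 93.8 in elongating libraries, so these sums differed between and within cell types. They were 1664 and 1601 in the pachytene libraries numbered 2, and 1981 in pachytene polysome 3. The Sertoli list includes Clu, which the paper calls ubiquitous and translated throughout spermatogenesis. Its means of 247 to 493 FPKM in the pachytene and round groups were the largest of the list there. The sums were not repeated without it. The pachytene libraries numbered 2 had elongating spermatid marker sums of 43.9 and 28.1, against 321 to 2497 in the other pachytene libraries. Elongating spermatid markers summed to 5760 to 31620 in the elongating libraries and to 28.1 to 4384 in all others. In bulk libraries like these, fewer cells of a type and less RNA per cell cannot be told apart.

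Of the 7 genes, Gas5 had the highest and Snhg12 the lowest median level per length. The median FPKM over 18 libraries was 41.9 for Gas5, 13.3 for Snhg6, 8.94 for Snhg1, 7.72 for Snhg3, 6.10 for Snhg8, 5.40 for Snhg5 and 2.10 for Snhg12. Snhg1 and Snhg5 were assembled in all 18 libraries, Gas5, Snhg6 and Snhg8 in 17, Snhg3 in 14 and Snhg12 in 10. Every one of the 7 passed the filter of 1 FPKM in at least 3 libraries, as did 14014 genes in all. Among the genes that passed, the median percentile over libraries ran from 24.1 for Snhg12 to 88.2 for Gas5.

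**Figure D1:**
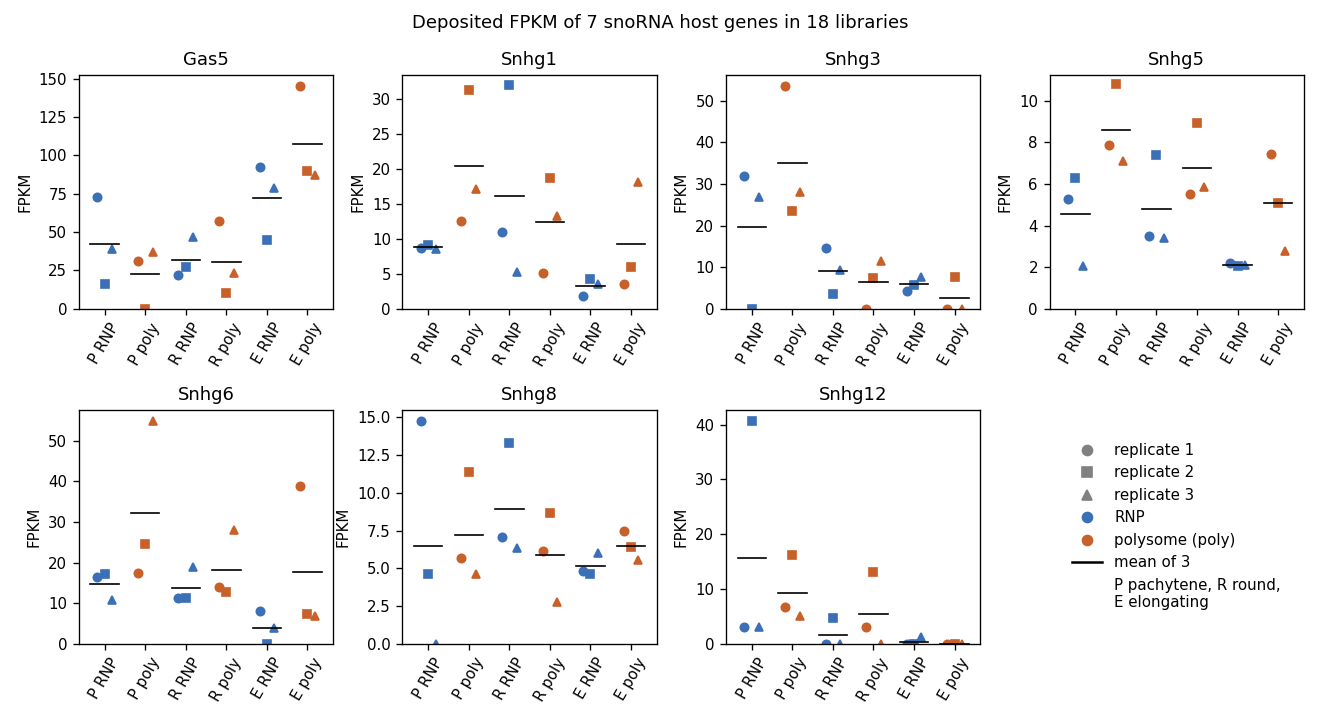
FPKM as deposited (y axis, linear, different scale in each panel) of the 7 host genes in the 6 groups (x axis; P pachytene, R round, E elongating), with a symbol for each replicate and a bar at the mean of 3 libraries. Gas5 is highest in elongating polysomes (mean 107), while Snhg12 is listed at 0 in all 3 elongating polysome libraries. Snhg3 is at 7.71 in elongating polysome 2 and at 0 in the other 2, where the transcripts over its junctions counted as Rcc1.

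Gas5 (growth arrest-specific 5) lies at mm9 chr1:162964553-162968670 on the plus strand and holds 9 annotated box C/D snoRNA genes. Its transcript was first known for building up in cells that stop growing. In pachytene spermatocytes its FPKM was 72.6, 16.1 and 38.9 in RNP and 31.1, 0 and 36.9 in polysomes. In round spermatids it was 22.2, 27.1 and 46.7 in RNP and 57.0, 10.6 and 23.6 in polysomes. These 4 groups overlapped. In elongating spermatids it was 92.5, 44.9 and 78.9 in RNP and 145, 89.6 and 87.4 in polysomes. The 3 elongating polysome libraries were above every pachytene and round polysome library, with a group mean of 107 ± 32.8 (SD, n = 3) against 22.6 ± 19.8 in pachytene and 30.4 ± 23.9 in round polysomes. The difference between elongating and pachytene polysomes was 3.30 ± 1.02 (SE) on the log2(FPKM + 1) scale, with an adjusted p of 0.0631, which missed the threshold of 0.05. It rested in part on pachytene polysome library 2, where no spliced Gas5 transcript was assembled and an unspliced fragment over SNORD24 had 104 FPKM. Without that library the difference was 1.60. In pachytene RNP, pachytene polysomes and round polysomes the library numbered 2 had the lowest Gas5 value, and in round RNP the middle one. Sertoli cell markers were high in all of these libraries, and their part in the Gas5 values was not tested.

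Gas5 was often assembled in pieces, and summing them adds the 5′ and 3′ parts of the same RNA. The junction over the intron with SNORD81, the last of the gene, was present in 17 of 18 libraries and gave a measure of the 3′ end alone. It carried 23.8, 16.1 and 33.3 FPKM in pachytene RNP, 31.1, 0 and 32.0 in pachytene polysomes, 22.2, 24.0 and 16.9 in round RNP, and 57.0, 10.6 and 23.6 in round polysomes. In elongating spermatids it carried 20.6, 29.6 and 54.4 in RNP and 81.0, 72.7 and 55.5 in polysomes. As deposited, the elongating polysome libraries were the highest group and overlapped only round polysome library 1, while RNP in elongating spermatids overlapped RNP in pachytene spermatocytes. The difference of 48.7 FPKM between elongating and pachytene polysomes, and that of 34.8 between elongating polysomes and elongating RNP, each had p = 0.1 in a two-sided exact permutation test, the smallest that 3 against 3 allows. After dividing each library by a median-ratio factor, the fractions of elongating spermatids overlapped, with 29.9, 51.9 and 70.003 in RNP against 61.1, 58.4 and 45.2 in polysomes, a difference of 4.29 (two-sided exact permutation test, p = 0.8). On that scale the highest library of all was pachytene RNP 3, at 70.5, and elongating polysomes were above all pachytene and round polysome libraries. The 5′ junction over the intron with SNORD75 was also higher in all 3 elongating polysome libraries, at 64.2, 16.9 and 31.9 FPKM, than in pachytene polysomes (at most 14.5) and round polysomes (at most 13.0), as deposited. It did not separate the fractions of elongating spermatids, with 37.7 ± 24.2 in polysomes and 37.2 ± 30.4 in RNP, where the highest value, 71.8, was in an RNP library.

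Exon use within Gas5 varied widely. An alternative exon of 41 bases (mm9 chr1:162967255-162967295), just downstream of the intron with SNORD78, is set out here because forms with and without it were both assembled in all 17 libraries with a spliced transcript. The join printed for the included exon was itself assembled in 14 of them, since some transcripts began within the exon. Capitals mark the first 15 bases of the exon that is joined on.
Exon included (mm9 intron chr1:162966984-162967254): tagacagtttgaaagTTAACTGGTTGCATG
Exon skipped (mm9 intron chr1:162966984-162967418): tagacagtttgaaagGTACAAATAATGGTT
The exon was in 17.4% to 79.5% of the FPKM over this place, shares that rest on how the assembler divided reads between the forms. The mean was 23.8% ± 5.70 (SD, n = 3) in round RNP and 63.6% ± 15.1 in round polysomes, and these 2 groups did not overlap, with 17.4%, 26.0% and 28.2% against 47.3%, 66.2% and 77.2%. This pair was singled out after its values were seen, and the difference was not tested. In elongating polysomes it spread from 22.3% to 79.5%, and in elongating RNP from 27.7% to 46.0%. The elongating groups overlapped, and so did pachytene RNP (25.4% to 53.5%) and pachytene polysomes (29.8% and 53.2% in 2 libraries).

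The intron of Gas5 that holds SNORD44 (mm9 chr1:162966711-162966950) was joined by splicing in 1 library only, round RNP 1, at 22.2 FPKM. A transcript with the intron kept was assembled in 5 libraries, at 13.0, 5.61 and 8.001 FPKM in the 3 round polysome libraries, 14.5 in pachytene polysome 1 and 4.99 in pachytene RNP 2. In the other 12 libraries, all 6 of elongating spermatids among them, neither form was assembled. Among these, pachytene polysome 3 had a longer junction over SNORD24 and SNORD44 (mm9 intron chr1:162966146-162966950) with the same end, at 9.64 FPKM. The intron begins and ends with the usual GT and AG, in capitals below with the exon bases before and after.
Start of the intron (mm9 chr1:162966701-162966730): aaatgaaatgGTaagtcaaactaaaggaat
End of the intron (mm9 chr1:162966931-162966960): tctttaatgtttttttctAGgtggagtttg

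**Figure D2:**
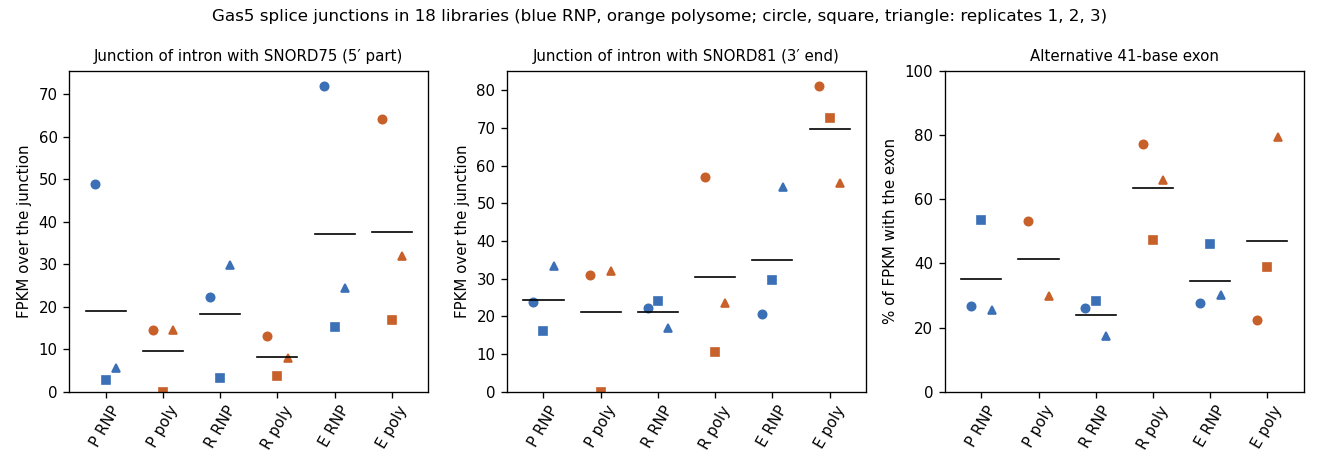
FPKM over a 5′ and a 3′ splice junction of Gas5 and the percentage of FPKM that includes the alternative exon (y axes, all from 0) in the 6 groups (x axis), with a symbol for each replicate and a bar at the mean. The 3′ junction lies at 55.5 to 81.0 in elongating polysomes, the 5′ junction overlaps between RNP and polysomes of elongating spermatids, and the exon share is lowest in round RNP and highest in round polysomes.

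Snhg3 lies at mm9 chr4:131903929-131909601 on the minus strand and hosts Snora73a and Snora73b, the U17 snoRNAs that take part in the cleavage of pre-ribosomal RNA. In pachytene spermatocytes its FPKM was 31.8, 0 and 26.8 in RNP and 53.5, 23.6 and 28.1 in polysomes. In round spermatids it was 14.6, 3.68 and 9.36 in RNP and 0, 7.49 and 11.5 in polysomes. In elongating spermatids it was 4.29, 5.67 and 7.73 in RNP and 0, 7.71 and 0 in polysomes. Each pachytene polysome library was therefore above every round and every elongating polysome library. The difference of elongating from pachytene polysomes was -4.04 ± 1.20 (SE) on the log2(FPKM + 1) scale, with an adjusted p of 0.0566. That value counts none of the transcripts joined to Rcc1.

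In 3 of the 4 libraries where Snhg3 is at 0, its junctions were assembled, but in transcripts that counted as another gene. Snhg3 overlaps Rcc1 (regulator of chromosome condensation 1, the exchange factor of the small GTPase Ran), which is on the same strand. In 5 libraries assembled transcripts ran from Snhg3 exons into the Rcc1 exons and counted as Rcc1. They had 124 FPKM in elongating polysome 1, 88.2 in elongating polysome 3, 37.4 in round polysome 1, 9.91 in pachytene RNP 1 and 8.90 in pachytene polysome 1. In the first 3 of these libraries they were 100% of the FPKM over Snhg3 junctions. In round polysome 2 the 7.49 FPKM counted as Snhg3 lay only over the junction that leads towards Rcc1 (mm9 intron chr4:131904036-131908036). Counting every transcript with a Snhg3 junction gave 38.0 ± 21.2 in pachytene polysomes and 73.1 ± 59.4 (SD, n = 3) in elongating polysomes, and the difference became 0.37 on the log2 scale, with an adjusted p of 0.877. The lower Snhg3 values in elongating polysomes are thus values of transcripts assembled apart from Rcc1. Rcc1, with the joined transcripts counted, rose from pachytene to elongating spermatids. Its mean went from 22.4 to 97.5 FPKM in polysomes (log2 difference 2.12 ± 0.52, adjusted p = 0.0295). In RNP it went from 8.94 to 47.1 (2.39 ± 0.52, adjusted p = 0.0490). In elongating polysome 1 and 3 the joined transcripts were all of the Rcc1 FPKM, so the rise in polysomes is not separate from them.

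The first exon of Snhg3 also had alternatives. The junction to the inner first exon (mm9 intron chr4:131908614-131909087) was assembled in 5 of 6 pachytene, 3 of 6 round and 1 of 6 elongating libraries. The junction to the outer first exon (chr4:131908614-131909511) was assembled in 4, 3 and 5 of 6. As a transcript of its own, the 3-exon form with the inner exon was found in 4 libraries, all pachytene, where it had 12.7 to 53.5 FPKM and 53.9% to 100% of the gene's FPKM.

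**Figure D3:**
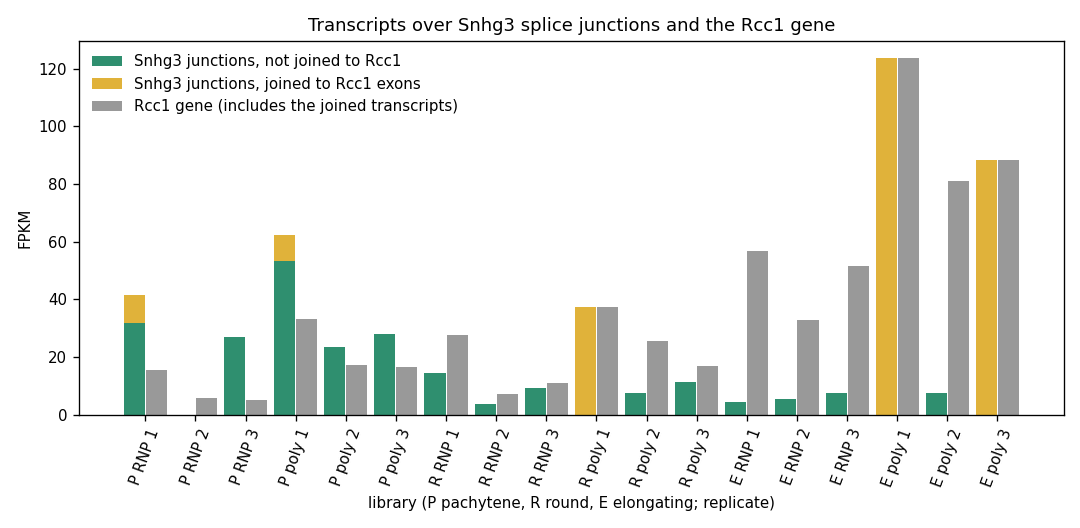
FPKM (y axis, linear from 0) of transcripts over Snhg3 junctions that stay apart from Rcc1 or are joined to it (stacked bars), beside the FPKM of Rcc1 (grey), in each of 18 libraries (x axis). The grey bars include the joined transcripts, and round polysome 2, where Snhg3 lay only over the junction towards Rcc1, is counted as apart. The joined transcripts reach 124 and 88.2 FPKM in 2 elongating polysome libraries, whereas in the pachytene libraries most or all of the Snhg3 signal is apart from Rcc1.

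Snhg1 (mm9 chr19:8797986-8800932, plus strand) holds 8 annotated box C/D snoRNA genes, SNORD25 to SNORD31 and Snord22. In pachytene spermatocytes its FPKM was 8.73, 9.15 and 8.50 in RNP and 12.6, 31.3 and 17.2 in polysomes, without overlap as deposited. After scaling they overlapped (10.2, 12.2 and 17.97 against 8.46, 20.3 and 11.3), and the difference of polysomes from RNP was -0.061 on the log2 scale. In round spermatids it was 11.02, 31.9 and 5.24 in RNP and 5.13, 18.6 and 13.3 in polysomes. In both pachytene spermatocytes and round spermatids, the highest deposited value of each fraction was in the library numbered 2, where Sertoli cell markers were high. In elongating spermatids it was 1.90, 4.30 and 3.52 in RNP and 3.52, 6.01 and 18.2 in polysomes. All 3 elongating RNP libraries were below all pachytene and round RNP libraries. The difference in RNP was -1.72 ± 0.66 (SE) from round to elongating (adjusted p = 0.506; -1.07 without round RNP 2) and -1.25 ± 0.66 from pachytene to elongating (adjusted p = 0.366). Sertoli cell markers were lower in elongating RNP too, and their part in the difference was not tested. No assembled transcript had the intron chain of an annotated Snhg1 transcript, whereas a chain of 9 exons was found in 10 libraries, with 4 of its 8 junctions not in the annotation.

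Snhg5 (mm9 chr9:88415894-88417721, minus strand) is the host of U50, a box C/D snoRNA with 2 annotated SNORD50 copies in its introns. In pachytene spermatocytes its FPKM was 5.29, 6.29 and 2.05 in RNP and 7.88, 10.8 and 7.10 in polysomes. The round spermatid values were 3.50, 7.41 and 3.42 in RNP and 5.51, 8.94 and 5.87 in polysomes. The elongating spermatid values were 2.23, 2.04 and 2.09 in RNP and 7.43, 5.08 and 2.80 in polysomes. In each pachytene and round group the library numbered 2 was the highest. Sertoli cell markers were high in these libraries, as they were in pachytene polysome 3, and their part in the Snhg5 values was not tested. Polysomes were above RNP without overlap in pachytene spermatocytes and elongating spermatids, by 0.87 ± 0.50 (SE, adjusted p = 0.256) and 0.90 ± 0.50 (adjusted p = 0.328) on the log2 scale. After scaling, these differences were -0.11 and 0.21 and the groups overlapped. The annotated chain of 5 exons was assembled in 17 libraries.

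Snhg6 (assembled span mm9 chr1:9932043-9934151, minus strand) holds the snoRNA gene AC102570.1, where RefSeq places Snord87. In pachytene spermatocytes its FPKM was 16.4, 17.2 and 10.7 in RNP and 17.3, 24.6 and 55.0 in polysomes. In round spermatids it was 11.3, 11.3 and 18.8 in RNP and 14.0, 12.7 and 28.1 in polysomes. In elongating spermatids it was 8.02, 0 and 3.80 in RNP and 38.8, 7.32 and 6.86 in polysomes. The 38.8 in elongating polysome 1 was a piece with the last intron alone. The junction over the intron with the snoRNA gene was assembled in 15 libraries. It was missing in round polysome 3, elongating RNP 2 and elongating polysome 1. Elongating RNP lay below every other RNP library, by -2.14 ± 0.75 (SE) against pachytene RNP (adjusted p = 0.175) and -2.04 ± 0.75 against round RNP (adjusted p = 0.502). Without elongating RNP 2, where Snhg6 is listed at 0, these were -1.24 and -1.13. Polysomes exceeded RNP in elongating spermatids by 1.97 ± 0.75 (adjusted p = 0.158), with overlap, by 1.06 without elongating RNP 2 and by 1.203 without elongating polysome 1. The last exon began at 2 places 6 bases apart. The stretch is printed with those 6 bases in capitals, which are exon in the longer form and intron in the shorter.
Snhg6, start of the last exon (mm9 chr1:9932219-9932248, minus strand): ccttttgggaagGTGCAGcttacatattgg
Both forms were assembled in 8 libraries, the longer alone in 8 and the shorter alone in 1. All 3 round RNP libraries had both, and all 3 elongating polysome libraries had the longer alone.

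Snhg8 (assembled span mm9 chr3:123210395-123212052, minus strand) holds AC124005.1, where RefSeq places the H/ACA snoRNA Snora24, and its group means differed least. In pachytene spermatocytes its FPKM was 14.8, 4.61 and 0 in RNP and 5.65, 11.4 and 4.63 in polysomes. The round spermatid values were 7.11, 13.3 and 6.36 in RNP and 6.15, 8.66 and 2.74 in polysomes. The elongating spermatid values were 4.82, 4.62 and 6.04 in RNP and 7.49, 6.42 and 5.54 in polysomes. The highest group mean was 1.73 times the lowest, against 4.06 to 40.3 times for the other 6 genes (for Snhg12 over its groups above 0). A single chain of 3 exons was assembled in 17 libraries.

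Snhg12 (mm9 chr4:131864593-131866939, plus strand) holds the H/ACA genes Snora16a, Snora44 and Snora61 and the C/D gene Snord99. The pachytene spermatocyte values were 3.11, 40.7 and 3.03 in RNP and 6.67, 16.1 and 5.14 in polysomes. The round spermatid values were 0, 4.69 and 0 in RNP and 3.05, 13.1 and 0 in polysomes. The elongating spermatid values were 0, 0 and 1.16 in RNP and 0 in all 3 polysome libraries. All 6 pachytene libraries were above all 6 elongating libraries. The difference of elongating from pachytene was -3.22 ± 0.998 (SE) in polysomes (adjusted p = 0.0640) and -2.77 ± 0.998 in RNP (adjusted p = 0.186) on the log2(FPKM + 1) scale, which depends on the pseudocount for a gene listed at 0. The RNP value was -1.65 without pachytene RNP 2. In each of pachytene RNP, pachytene polysomes, round RNP and round polysomes, the library numbered 2 was the highest, as for Snhg1 and Snhg5. Sertoli cell markers summed to 1664, 1601, 1431 and 2921 in these 4 libraries, and to 35.8 to 93.8 in elongating spermatids. Pachytene polysome 3 had a marker sum of 1981 and the lowest Snhg12 value of its group, 5.14. The 8 libraries with Snhg12 at 0 had marker sums of 35.8 to 272, and the 10 above 0 had 40.9 to 2921. The part of Sertoli cell RNA in the Snhg12 values was not tested.

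Comparing neighbours in the order of their 6 group means, all 5 pairs overlapped for Gas5, Snhg3, Snhg5, Snhg8 and Snhg12, and 4 of 5 for Snhg1 and Snhg6. The order of groups was thus resolved only over larger steps. For Snhg1 and Snhg6 the step without overlap was the last, down to elongating RNP.

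Whether each host RNA lay more in polysomes or in RNP was asked in each cell type with limma on log2(FPKM + 1) over all 14014 genes tested. No host gene passed an adjusted p of 0.05. Over all genes tested, 6.99% passed for pachytene spermatocytes, 0.207% for round and 1.46% for elongating spermatids. At an unadjusted p under 0.05 the counts were 0, 0 and 1 of 7, against 28.8%, 15.2% and 20.7% of all genes. Most genes had higher FPKM in polysomes as deposited, with medians on the log2 scale of 1.02 (pachytene), 0.66 (round) and 0.72 (elongating). The median over the 7 host genes was 0.87, -0.17 and 0.59. After dividing each library by a median-ratio factor, the median of all genes was 0.19, 0.07 and 0.02 and that of the host genes -0.11, -0.88 and -0.31, so their median was below that of all genes on both scales. Over all genes, the 979 calls in pachytene spermatocytes were 968 higher and 11 lower in polysomes and became 12 and 3 after scaling, and the 204 in elongating spermatids were 189 and 15 and became 24 and 17. Polysome libraries lay above RNP without overlap for Snhg1, Snhg5 and Snhg6 in pachytene spermatocytes, 3 of 7 against 30.3% of all genes, and for Snhg5 in elongating spermatids, 1 of 7 against 37.5%, all as deposited. After scaling each of these pairs of groups overlapped.

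**Figure D4:**
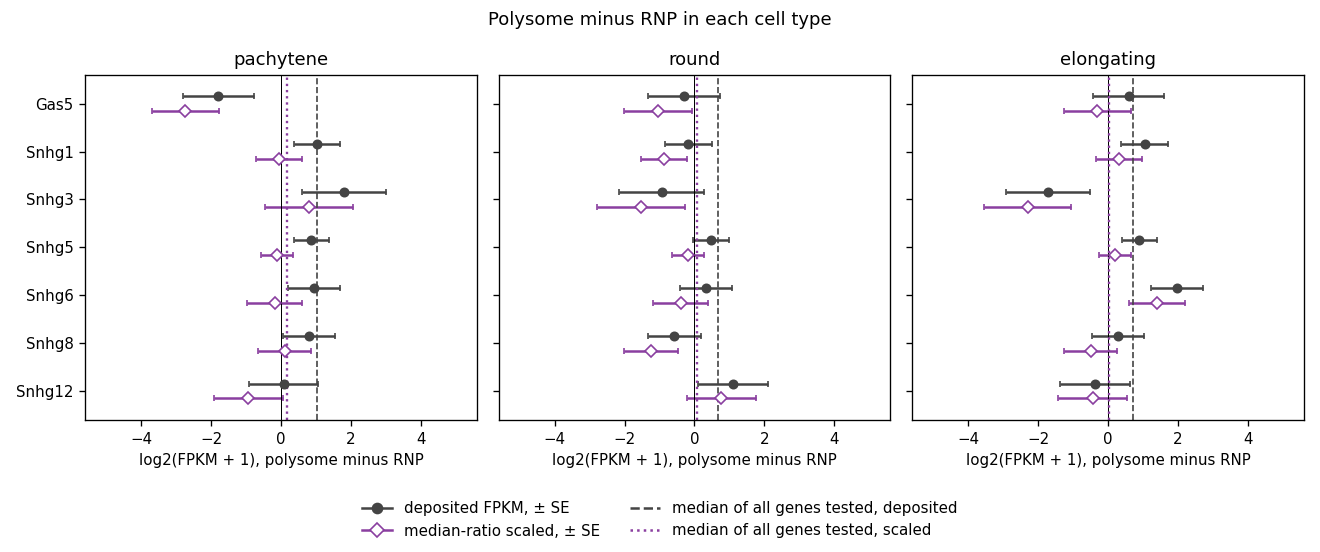
Difference of polysome minus RNP on the log2(FPKM + 1) scale (x axis) with its SE for the 7 host genes (y axis) in each cell type, as deposited (circles) and after median-ratio scaling (diamonds), with the median of all genes tested as a dashed and a dotted line. Scaling moves every point to the left, and the deposited medians of all genes are 1.02, 0.66 and 0.72.

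Gas5 had the lowest difference of the 7 in pachytene spermatocytes, -1.79 ± 1.02 (SE, adjusted p = 0.247) as deposited, -2.73 scaled, and -0.082 as deposited without pachytene polysome 2 (-2.70 without pachytene polysome 3), while 6 of 7 host genes were above 0 as deposited and 2 of 7 scaled. In elongating spermatids its difference was 0.59 ± 1.02 as deposited (adjusted p = 0.804) and -0.31 scaled. The change of this difference between cell types was tested for all genes. None of the 7 passed from pachytene to round (0.00714% of all genes passed) or from round to elongating (0%), and none had an unadjusted p under 0.05.

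Between cell types, the question was how each fraction changed as spermatocytes became spermatids. In RNP, no host gene passed from pachytene to round (0% of all genes passed), from round to elongating (0.0785%) or from pachytene to elongating (0.699%), and 1, 2 and 2 of 7 had an unadjusted p under 0.05, against 4.47%, 8.65% and 16.1% of all genes. In polysomes, none passed from pachytene to round (0.171%), from round to elongating (0.507%) or from pachytene to elongating (6.09%), and 1, 0 and 3 of 7 had an unadjusted p under 0.05, against 7.79%, 15.6% and 24.8%. The last step held the 3 smallest adjusted p values of the 7 genes, 0.0566 for Snhg3, 0.0631 for Gas5 and 0.0640 for Snhg12, of which Gas5 was higher and the others lower in elongating spermatids. These values lay close to the threshold, and 8 of 29 other settings of the fit called 1 to 3 of the 3 genes. Leaving out round polysome library 2 called all 3, and so did leaving out both round libraries numbered 2. Neither library is in the comparison. Over all genes, more than the 853 of the main fit passed in both settings, and 2241 passed with only the libraries compared. The added host calls thus came with added calls over all genes. Libraries outside a comparison enter it through the estimate of spread and the set of genes tested, and leave its log2 differences as they are. What set these libraries apart was not tested.

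Elongating RNP libraries lay below round RNP libraries without overlap for Snhg1, Snhg5, Snhg6 and Snhg8, 4 of 7 against 10.4% of all genes. They lay below pachytene RNP libraries for Snhg1, Snhg6 and Snhg12, 3 of 7 against 7.36%. In polysomes, Snhg3 and Snhg12 were lower without overlap in elongating spermatids than in pachytene spermatocytes, 2 of 7 against 23.3%, and Gas5 was higher, 1 of 7 against 15.6%. From pachytene to round, Snhg3 alone was lower (7.78% of all genes), with a difference of -2.84 ± 1.20 (SE, adjusted p = 0.562). It was -1.72 without round polysome 1 and -1.16 (adjusted p = 0.941) with transcripts joined to Rcc1 counted, where round polysome 1 reached 37.4 FPKM and the groups overlapped. From round to elongating, Gas5 alone was higher (11.9%), by 2.05 ± 1.02 (adjusted p = 0.341). The median over the 7 genes from pachytene to elongating was -0.74 in RNP, where that of all genes was 0, and -1.11 in polysomes, where that of all genes was -0.25. Over all genes, 443 rose and 410 fell in polysomes at that step, and 388 and 182 after scaling. The comparisons with elongating spermatids use the same elongating libraries and are not independent of each other.

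**Figure D5:**
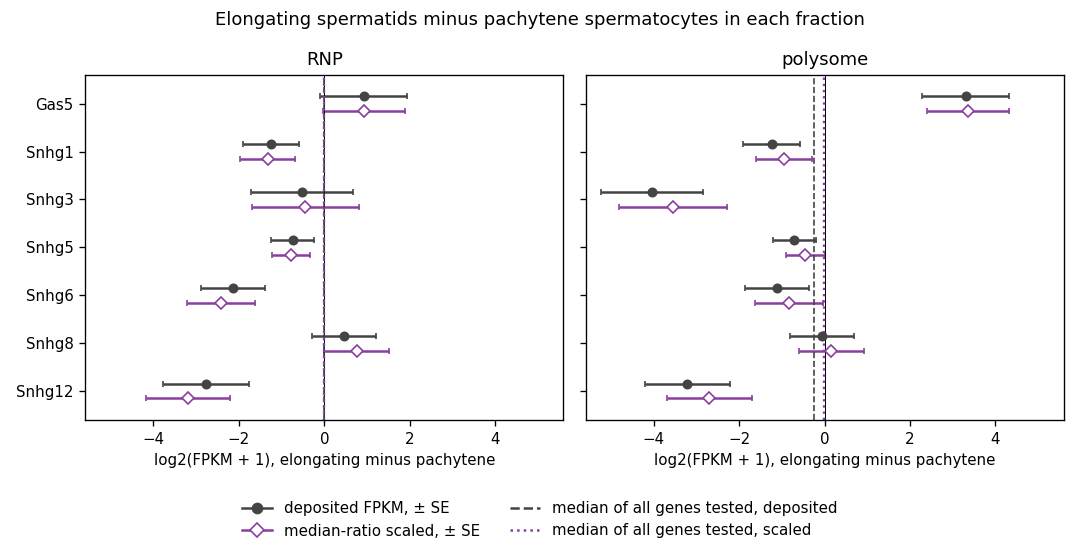
Difference of elongating minus pachytene on the log2(FPKM + 1) scale (x axis) with its SE for the 7 host genes (y axis) in RNP and in polysomes, as deposited (circles) and scaled (diamonds), with the medians of all genes tested as lines. In polysomes Gas5 lies at 3.30 and Snhg3 and Snhg12 at -4.04 and -3.22, while Snhg8 lies near 0.

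The genes around this pathway gave few calls. Of 13 other noncoding host genes, 9 matched the annotation and 7 were tested. In polysomes, 2 of 7 fell from pachytene to elongating spermatids, where 6.09% of all genes were called, Snhg7 by 2.65 on the log2 scale (adjusted p = 0.0347) and Snhg18, whose gene the annotation lists as Snord123, by 1.52 (adjusted p = 0.0154). Both are listed at 0 in all elongating libraries, so these sizes depend on the pseudocount, and Snhg7 did not pass after scaling (adjusted p = 0.0945). The list's median was -1.57, against -0.25 for all genes. Snhg18 was also called higher in pachytene polysomes than RNP (1.52, adjusted p = 0.0232). It had a mean of 1.87 FPKM in pachytene polysomes and is listed at 0 in every other group. It thus passed the filter through that group alone. Both of its calls set the same 3 libraries against values of 0 and are not separate results. Of 32 protein-coding hosts of snoRNAs, mostly ribosomal protein and translation factor genes, none passed in that comparison, and the median was -0.50. The fraction calls below stand against 6.99% of all genes in pachytene and 1.46% in elongating spermatids. Eef1b2, a subunit of translation elongation factor 1, was the only one called in pachytene spermatocytes, higher in polysomes by 1.43 (adjusted p = 0.0390), and Nop58, a core protein of box C/D particles, the only one in elongating spermatids, by 2.43 (adjusted p = 0.0497). Of 15 proteins of small nucleolar particles, Nhp2l1, which binds the kink-turn of box C/D snoRNAs, was called in pachytene spermatocytes (3.22, adjusted p = 0.0355), and Nop58 and Gar1, a core protein of H/ACA particles, in elongating spermatids (3.63 for Gar1, adjusted p = 0.0495). Among genes of nonsense-mediated decay, those called higher in polysomes included Magoh, Magohb and Smg6 in pachytene spermatocytes and Rbm8a in elongating spermatids. After median-ratio scaling none of these fraction differences passed, although they stayed above 0 for Gar1 (3.34), Nhp2l1 (2.14), Nop58 (1.55), Snhg18 (1.16) and Eef1b2 (0.28). Gar1 is listed at 0 in all elongating RNP libraries, so its sizes depend on the pseudocount, as do those of Snhg18. No gene of the last 3 lists passed between cell types in either fraction as deposited, and after scaling 1 gene of nonsense-mediated decay rose in polysomes from pachytene to elongating spermatids.

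Among 6791 tested genes with a mean of at least 10 FPKM, the genes most like each host over the 18 libraries were found by Pearson's r of log2(FPKM + 1). The points share library depth and the 6 groups, and no p is given. For Gas5 they were Pfdn5 (r = 0.89), which encodes a subunit of the prefoldin chaperone, Oplah (0.85) and Gm550 (0.82). For Snhg1 they were Pisd (0.87), Siva1 (0.87) and 6720456B07Rik (0.86). For Snhg5 they were Hjurp (0.95), the chaperone of the centromeric histone, Hnrnpk (0.92) and Btg3 (0.92). For Snhg12 they were Shbg (0.91), 4632411B12Rik (0.89) and Upf1 (0.87), the helicase of nonsense-mediated decay. The highest values were lower for Snhg8 (Pkd1, 0.85), Snhg6 (Trappc1, 0.79) and Snhg3 (Mrpl53, 0.77). Among the hosts themselves, r ran from -0.67 for Gas5 with Snhg1 to 0.67 for Snhg5 with Snhg6, and Gas5 was negative with all 6 others.

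The snoRNA genes inside the hosts were mostly without a fragment of their own. Of 27, 10 were covered over at least 50% of their length by an unspliced fragment in at least 1 library. The most frequent were Snord22 in 11 libraries (up to 8660 FPKM), Snora73a in 13 (up to 427) and Snora73b in 9 (up to 610). The paper isolated large and small RNAs with different kits and profiled small RNAs separately. A missing fragment here does not show that a snoRNA was absent, and these FPKM values were not taken as snoRNA levels.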

How the data were processed

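RNA of each gradient fraction was made into stranded total RNA libraries and sequenced at 2 centres with different read layouts, and the sources used here do not say which library went where. Per the labels and the study's methods, the authors aligned reads to mm9 with TopHat and assembled each library alone with Cufflinks (versions not given in the sources used here). The deposited values are FPKM written as text beside each transcript, with no counts, so their precision is limited by unknown read numbers.

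FPKM of spliced transcripts was summed per gene, each transcript going to the gene with which it shared most junctions. limma 3.58.1 in R 4.3.3 was fitted to log2(FPKM + 1) with 6 groups over 18 libraries, for genes with at least 1 FPKM in at least 3 libraries, with a trended prior, two-sided, and Benjamini-Hochberg adjustment over all 14014 genes; calls were made at 0.05. The fit was tested on simulated data, where it recovered most large changes between groups in genes of low spread, and fewer when changed genes were drawn from all genes or in the change of a fraction difference. Nothing says that same-group libraries came from separate animals, so p-values measure the spread between these libraries. Same-numbered libraries deviated together (r over 0.1 for all 3 pairs) in 2 of 9 comparisons between groups, the fraction difference in round spermatids and RNP from pachytene to round. Median-ratio factors came from 6912 genes above 1 FPKM in every library. All 7 genes are named, up to 3 genes most like each, up to 4 passing genes per list and comparison, and intron chains with at least 10% of a gene's FPKM in at least 3 libraries. Members and lists were chosen with earlier results of these data known, as were junction measures and 2 added alternatives. A result of the nonsense-mediated decay list is not reported here.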

Additional observations from a re-analysis of the deposited data

How the results depend on the processing

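Of the 11 comparisons, 10 had 0 of the 7 host genes called in all 29 alternative settings. From pachytene to elongating polysomes, where 0 were called, 2 were called with only the libraries compared (Snhg3 and Snhg12), 3 without both round libraries numbered 2, and 0 to 3 when each library was left out in turn (3 without round polysome 2, 2 without pachytene RNP 2 or round RNP 2, 1 without pachytene polysome 1 or round polysome 1). Leaving out a library outside the comparison acts through the estimate of spread and the set of genes tested. What set these libraries apart was not tested. With replicate number as a block, 3 were called (adjusted p = 0.0152 for Gas5, 0.0176 for Snhg12 and 0.0416 for Snhg3), over all genes 1882 against 853, and the block changed no call of a host gene in the other 10 comparisons. These numbers do not pair the libraries (r from -0.05 to 0.08). Over all genes, calls in that comparison ranged from 132 (without pachytene polysome 2) to 2241 (only the libraries compared). They were above the 853 of the main fit in every setting with host calls except that without pachytene polysome 1. The fraction difference had 979 calls in pachytene (6 to 2580), 29 in round (2 to 75) and 204 in elongating spermatids (17 to 2251). RNP had 0 from pachytene to round (0 to 21), 11 from round to elongating (0 to 62) and 98 from pachytene to elongating (11 to 894), and polysomes 24 (0 to 87) and 71 (4 to 615) at the first 2 steps. Counting shared transcripts for every gene, added after seeing the data, turned the sign for Snhg3 in polysomes from pachytene to elongating (0.37) and in the fraction difference of round (0.81) and elongating spermatids (2.76). Without both round libraries numbered 2, the round fraction difference was 0.18 for Gas5 and 0.11 for Snhg1. Median-ratio scaling turned the fraction difference in pachytene spermatocytes for Snhg1 (-0.061), Snhg5 (-0.11), Snhg6 (-0.18) and Snhg12 (-0.93), in round for Snhg5 (-0.19) and Snhg6 (-0.40), and in elongating for Gas5 (-0.31) and Snhg8 (-0.50). Quantile normalization did so in pachytene for Snhg6 (-0.15), Snhg8 (-0.081) and Snhg12 (-0.94), in round for Snhg5 (-0.00991) and Snhg6 (-0.36), and in elongating for Gas5 (-0.30) and Snhg8 (-0.30). Whole annotated intron chains gave -0.0973 for Snhg12 in pachytene and no value for Snhg1, Snhg6 and Snhg8. Leaving out each library in turn gave ranges across 0 in the fraction difference for Snhg8 (-0.28 to 1.71) and Snhg12 (-0.49 to 1.19) in pachytene and for Gas5 (-0.89 to 0.27), Snhg1 (-0.73 to 0.47), Snhg3 (-1.64 to 0.18) and Snhg6 (-0.0098 to 0.56) in round spermatids.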
